A study of Mus musculus with 8 samples.

Results

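Knockout-only promoter peaks are stretches of open chromatin at gene starts that were listed in the Spata7 knockout retina and had no counterpart in the wild-type retina. They were chosen by peak positions in the 2 deposited lists, that is by overlap: a peak of the knockout list qualified when promoter was among its annotated kinds and no base of it was covered by a peak of the wild-type (WT) list. The rule found 1424 members among the 13887 promoter peaks of the knockout list, 10.3% of them, and among 91130 knockout peaks of every kind. The lists carry no height or score, so these peaks are called by presence alone, and the lengths and positions given here describe the values that chose them and were not tested.

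The series follows mouse retina along photoreceptor degeneration in Spata7 mutant animals, compared with C57BL6/J animals. Single-nucleus ATAC sequencing gave 1 library of each genotype, WT at 7 months and knockout (KO) at 6 months, so genotype cannot be told apart from the month of age or from the library. Single-cell RNA sequencing on nanowell chips gave 1 library per genotype at 1, 3 and 6 months, 6 in all, and no group had a second library. All animals were labelled male, and the nanowells took live cells or nuclei. Per the labels the RNA libraries of both genotypes were on the C57BL6/J background; the mutant allele itself and any pooling of animals were not given in the sources used here.

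An ATAC peak marks DNA that nucleosomes leave free for the Tn5 transposase, and promoters of active genes are usually open. In retina, rods make up most nuclei, and their chromatin is unusually compact, so a list from all nuclei is led by rods. Spata7 is a protein of the photoreceptor connecting cilium, and its loss leads to slow death of rods and cones. Müller cells, the radial glia of the retina, react to photoreceptor loss with a programme known as reactive gliosis, of which the intermediate filament gene Gfap is the classical sign. A peak list pools every nucleus of a library: a promoter that opened in a cell type and a cell type that made up more of the library cannot be told apart.

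The RNA libraries held between 216 and 876 wells that passed the filters and from 12356586 to 182310499 reads, with median reads per well between 25603 and 189067. Spata7 itself was listed with a promoter peak in the WT and with none in the KO. Its RNA over all wells was 26.1, 20.2 and 32.2 CPM (the gene's reads scaled to the same total for each library and group of wells) in WT at 1, 3 and 6 months, and 4.07, 1.38 and 3.59 CPM in KO (log2 change -3.38, SE 0.67, edgeR adjusted p = 0.977). Every KO library lay below every WT library. The sex labels were not followed by every library. The RNA library labelled WT 1 month held 0 reads of Ddx3y, Eif2s3y, Kdm5d and Uty, genes of the Y chromosome, and 20091 reads of Xist, the RNA of the inactive X. The other 5 libraries had reads of all 4 Y genes and at most 23 of Xist. In the peak lists, the same 4 genes had promoter peaks in KO and none in WT, and these 4 peaks are members; the WT list had 7 peaks on Y, none at a promoter, which goes against its male label. Sex by these genes and genotype therefore cannot be told apart in the ATAC pair and in the 1 month RNA pair. On X, 55 of 425 KO promoter peaks were knockout-only, 12.9%, against a range of 7.14% to 13.6% over the 19 autosomes.

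Promoter windows of 8 genes with a knockout-only peak are printed to show how widely their CG content varied. The windows run from 250 bases before to 50 after the RefSeq start of the gene (GRCm38.p6, the build named mm10 in the submitters' processing notes), 5′ to 3′, with each CG dinucleotide in capitals. They show 2 of the genes named under each of 4 rules: gene list members with most RNA, genes with the largest RNA ratio, genes of highest RNA level in a gate, and genes of the longest peaks. The printed genes were not always the highest of their rule. C4b ranked above Cd44 by RNA in its list and above Crip1 by ratio over all wells, and is not printed.

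The windows of the first 2 rules were those of Ifit3 (chr19:34583279-34583578, plus strand), an interferon-induced gene with 1 CG; Cd44 (chr2:102901616-102901915, minus strand), a hyaluronan receptor with 6; Serpina3n (chr12:104406458-104406757, plus strand), a serine protease inhibitor of reactive glia with 3; and Crip1 (chr12:113151762-113152061, plus strand), a LIM protein with 18. Over all wells Crip1 was at 12.6, 1.94 and 0.0417 CPM in WT and 12.7, 32.9 and 12.3 CPM in KO, so the groups overlapped, and Ifit3 at 21.5, 34.7 and 16.9 CPM against 36.6, 98.0 and 30.7 CPM.
Ifit3: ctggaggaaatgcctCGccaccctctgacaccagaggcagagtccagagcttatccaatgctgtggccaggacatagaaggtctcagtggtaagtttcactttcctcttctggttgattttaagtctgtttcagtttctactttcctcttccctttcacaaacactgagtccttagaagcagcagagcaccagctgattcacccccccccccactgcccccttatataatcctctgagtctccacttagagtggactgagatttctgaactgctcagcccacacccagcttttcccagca
Cd44: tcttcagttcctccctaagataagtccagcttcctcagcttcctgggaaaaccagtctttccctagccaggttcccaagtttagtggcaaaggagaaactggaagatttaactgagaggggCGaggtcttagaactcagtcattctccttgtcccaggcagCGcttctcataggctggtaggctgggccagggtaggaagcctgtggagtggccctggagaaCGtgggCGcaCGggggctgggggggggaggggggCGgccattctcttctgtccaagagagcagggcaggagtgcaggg
Serpina3n: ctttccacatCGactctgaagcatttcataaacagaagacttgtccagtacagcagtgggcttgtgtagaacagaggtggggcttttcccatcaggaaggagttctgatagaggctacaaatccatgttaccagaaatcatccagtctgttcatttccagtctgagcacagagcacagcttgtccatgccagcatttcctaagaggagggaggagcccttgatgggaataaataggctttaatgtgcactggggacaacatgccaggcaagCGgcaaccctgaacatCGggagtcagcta
Crip1: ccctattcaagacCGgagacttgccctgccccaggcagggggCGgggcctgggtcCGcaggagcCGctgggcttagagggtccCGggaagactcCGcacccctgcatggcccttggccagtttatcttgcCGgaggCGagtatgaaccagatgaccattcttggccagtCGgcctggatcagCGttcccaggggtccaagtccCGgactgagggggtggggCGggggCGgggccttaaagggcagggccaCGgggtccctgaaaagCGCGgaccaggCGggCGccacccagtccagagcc

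The bipolar cell genes Trpm1 (chr7:64153585-64153884, plus strand), the cation channel of ON bipolar cells, and Pcp2 (chr8:3625498-3625797, minus strand), a modulator of G protein signalling, had 2 and 1 CG in their windows.
Trpm1: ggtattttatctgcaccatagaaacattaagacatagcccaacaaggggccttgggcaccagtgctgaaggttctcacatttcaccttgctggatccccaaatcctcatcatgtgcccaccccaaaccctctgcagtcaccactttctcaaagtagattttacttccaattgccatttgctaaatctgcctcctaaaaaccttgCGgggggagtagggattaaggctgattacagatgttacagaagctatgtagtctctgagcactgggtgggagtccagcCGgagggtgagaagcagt
Pcp2: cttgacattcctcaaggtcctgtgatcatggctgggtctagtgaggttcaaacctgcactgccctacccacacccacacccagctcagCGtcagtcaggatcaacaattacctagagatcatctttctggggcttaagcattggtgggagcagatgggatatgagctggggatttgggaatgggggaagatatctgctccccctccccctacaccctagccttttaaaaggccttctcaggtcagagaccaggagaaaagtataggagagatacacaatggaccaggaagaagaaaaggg

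The windows under the longest peaks were those of Pcdh7 (chr5:57717831-57718130, plus strand), a protocadherin with 11 CG, and Car10 (chr11:93098116-93098415, plus strand), a carbonic anhydrase-related protein with 22.
Pcdh7: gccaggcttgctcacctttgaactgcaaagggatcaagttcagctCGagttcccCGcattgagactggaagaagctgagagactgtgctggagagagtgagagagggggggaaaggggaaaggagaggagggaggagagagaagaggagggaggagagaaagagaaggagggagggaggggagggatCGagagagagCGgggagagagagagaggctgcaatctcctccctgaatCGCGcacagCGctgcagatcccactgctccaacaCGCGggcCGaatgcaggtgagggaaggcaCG
Car10: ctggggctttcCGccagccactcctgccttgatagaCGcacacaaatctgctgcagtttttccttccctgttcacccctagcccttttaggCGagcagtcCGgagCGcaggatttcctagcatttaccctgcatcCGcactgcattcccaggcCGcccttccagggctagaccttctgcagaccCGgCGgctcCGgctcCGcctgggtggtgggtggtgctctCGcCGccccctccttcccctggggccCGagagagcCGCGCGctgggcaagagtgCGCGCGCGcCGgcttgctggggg

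Of the RefSeq windows, 963 lay under a knockout-only peak, and 804 of the 1424 members covered at least 1 window. The median window under a knockout-only peak held 13 CG dinucleotides and 59.0% G and C, against 22 and 62.3% in the 13210 windows under shared promoter peaks. Windows under no KO promoter peak, 18678 in number, held a median of 3. The CpG ratio (observed over expected from base content) was 0.6 or more in 42.8% of windows under knockout-only peaks, in 76.7% of those under shared peaks and in 35.8% of all windows. Within the members it was higher under longer peaks: 33.8% of windows under peaks of 300 bp or less, 41.7% over 300 and up to 1000 bp and 52.4% over 1000 bp.

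Short motifs were counted on both strands as a description of letters only. The AP-1 motif TGANTCA was found in 8.31% of windows under knockout-only peaks, 3.91% under shared peaks and 7.81% of all windows. The Sp1 box GGGCGG was found in 52.2%, 67.9% and 35.7% in the same order, and the CRE core TGACGT in 5.30%, 12.0% and 7.52%. The photoreceptor homeobox motif TAATCC was found in 4.67%, 5.38% and 7.06%, CCAAT in 34.2%, 37.4% and 37.4%, TATAAA in 7.17%, 5.97% and 13.6%, and the E-box CANNTG in 71.8%, 61.4% and 72.3%. GGGCGG and TGACGT hold a CG pair themselves, and these shares were not matched for base content. Among the printed windows, TAATCC was in those of Trpm1 and Ifit3, and TGANTCA in that of Ifit3.

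**Figure D1:**
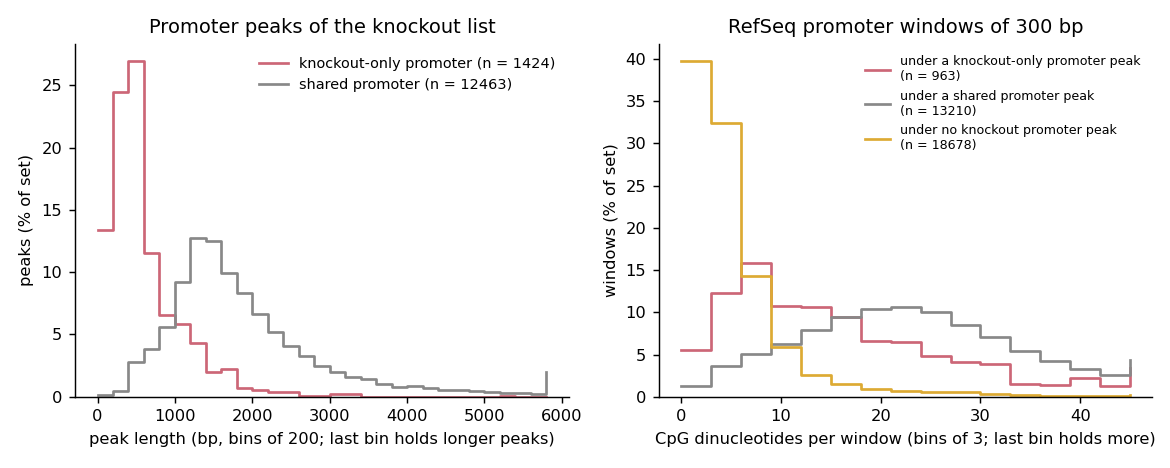
Left, length of promoter peaks of the knockout list in bins of 200 bp, as a percentage of knockout-only and of shared peaks; right, CG dinucleotides per 300 bp RefSeq promoter window in bins of 3, by the kind of peak over it. Knockout-only peaks were short (median 475 bp against 1649 bp), and their windows lay between those under shared peaks and those under none.

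The members were short. Their median length was 475 bp (quartiles 329 and 776 bp), against 1649 bp for shared promoter peaks (quartiles 1254 and 2308 bp), and 17.1% of them exceeded 1000 bp against 87.2%. The shortest measured 1 bp, and 49 were 50 bp or less, among them the 2 bp member assigned to Atp5f1, a subunit gene of ATP synthase whose RNA was at 598 CPM or more in every library of the rod gate. Most lay far from any WT peak: the median gap was 21484 bp, 910 members (63.9%) were over 10 kb away and 5 were under 500 bp. Nearest inside the rule were peaks at Igf2bp1, 50 bp from a WT peak, and Exoc3l4, at 109 bp; just outside were peaks at Tmem37, Zfp697, Aqp3 and Wnt5b, each overlapping a WT peak by 1 bp. The annotated distance to the gene start was 0 for 71.0% of knockout-only peak and gene pairs and for 97.5% of shared ones.

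Peaks of other kinds are given for comparison, with no test. Of all KO peaks, 38578 had no WT overlap (42.3%), with 45.9% of distal and 78.5% of intergenic ones. The WT list was shorter, with 56797 peaks over 50.2 Mb against 72.9 Mb in KO, and only 35 of its 12393 promoter peaks (0.282%) lacked a KO overlap. The depth of the ATAC libraries and the number of nuclei were not given in the sources used here, and their part in this asymmetry was not tested. Limiting the KO list to its 56797 longest peaks left 810 knockout-only promoter peaks.

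The members named 1365 genes. No WT peak of any kind was assigned to 449 of them, 687 had a WT peak but none at a promoter, and 229 had a WT promoter peak at another start. The 1136 genes with no WT promoter peak are the basis of the RNA results below and are called newly listed promoter genes; they made up 8.08% of the 14064 genes with a KO promoter peak. These genes were long: the median RefSeq span was 35.0 kb, and 15.1% exceeded 200 kb, against 24.3 kb and 5.10% for the 12699 genes with shared promoter peaks only.

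The longest member, 5223 bp at chr5:57714748-57719970, lay over the start of Pcdh7, a protocadherin of cell adhesion, 3383957 bp from the nearest WT peak. It was followed by Car10 (3308 bp), Vstm2b (3240 bp), Ntng1 (3232 bp), which encodes the axon guidance protein netrin G1, Gfra1 (3113 bp), a GDNF receptor, Ugt1a1 (3069 bp), a glucuronosyltransferase, Ccnd2 (3035 bp), a cyclin, and Igf1 (2964 bp), a growth factor. Car10, Ntng1 and Igf1 were read in the bipolar gate of both genotypes. Car10 was at 441, 368 and 441 CPM in WT and 454, 394 and 236 CPM in KO at 1, 3 and 6 months there, and Ntng1 at 389, 408 and 416 CPM against 288, 327 and 328 CPM. Vstm2b in the bipolar gate was at 64.2, 115 and 115 CPM in WT and at 461, 137 and 122 CPM in KO, higher in KO at each age but mainly at 1 month (edgeR log2 change 0.87, SE 0.65, adjusted p = 0.999). Ugt1a1, which shares its last exons with the other Ugt1a genes, had 0 reads in all 6 libraries. Among the longest members were thus genes with ample RNA in both genotypes and a gene with no counted read. How reads of exons shared between genes were counted was not given in the sources used here.

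More than 1 knockout-only peak was found at 62 genes, and 3 at each of Auts2, Bcl11a, Anks1b, Etl4 and Phactr3. Auts2, a regulator of neuronal gene activity, had 3 such starts between chr5:131537081-131539054 and chr5:132540886-132542346, and its RNA in the bipolar gate was at 115, 189 and 152 CPM in WT and 211, 169 and 72.8 CPM in KO. Bcl11a, a zinc finger repressor, had no WT peak assigned, yet its RNA over all wells was at 3.26, 12.4 and 2.29 CPM in WT and 0.301, 3.34 and 1.75 CPM in KO, lower in KO at each age with overlap between ages.

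By gene list, knockout-only promoters were found at many markers of bipolar and amacrine cells and at many glial reaction genes, and at no rod marker. Over all genes with a KO promoter peak, 9.71% had a knockout-only one. Among bipolar cell markers the count was 8 of 10: Grm6, the glutamate receptor of ON bipolar cells, Trpm1, Vsx1, Cabp5, Pcp2 and Grik1 were newly listed, and Lrtm1 and Scgn had another promoter listed in WT. Among amacrine cell markers it was 6 of 9, with Gad2, the enzyme that makes GABA, Slc32a1, the vesicular transporter of GABA and glycine, Chat, which makes acetylcholine, and C1ql2 newly listed. Horizontal cell markers gave 2 of 5, with Calb1 newly listed, and ganglion cell markers 3 of 7, all newly listed: Slc17a6, Pou4f2 and Nefm. In contrast, 0 of 14 rod markers, 0 of 16 photoreceptor transcription factors, 1 of 13 Müller markers (Aqp4, the water channel), 1 of 35 cilium genes and 1 of 54 chromatin regulators had one. Phototransduction genes gave 4 of 33 (12.1%), near the share over all genes. Cone markers gave 3 of 11: Cngb3, a subunit of the cone channel, was newly listed, and Pde6h and Gngt2 had another WT promoter.

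Reactive gliosis genes gave 9 of 21, and all 9 had no WT promoter peak: Gfap, A2m, Serpina3n, the complement gene C4b, the endothelin receptor gene Ednrb, Cd44, Bmp2 and the chemokine genes Cxcl10 and Ccl2. The immune and microglia list gave 5 of 21: P2ry12, Cd68, Lgals3, Ifit3 and Ifi27. Of 12 microglia markers, 9 had no promoter peak in KO. Developmental transcription factors gave 16 of 48, including Barhl2, Sox11, Foxn4, Msx1, Pax2 and Olig2. Cell death genes gave 3 of 20, Gsdmd, Tnfrsf1a and Fas, and stress and survival genes 1 of 29, Cntf. These counts depended on how members were chosen. When peaks less than 50% covered by WT peaks were also taken, the rod list was at 1, the Müller list at 6, the gliosis list at 17 and the developmental list at 31 genes, while the share over all genes went from 9.71% to 17.7%. With both lists limited to peaks of 500 bp or more, the amacrine list was at 3 and the Müller list at 3, with 11.9% over all genes. With the KO list limited to its longest peaks, the bipolar list was at 5 and the amacrine list at 3, with 5.86% over all genes.

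**Figure D2:**
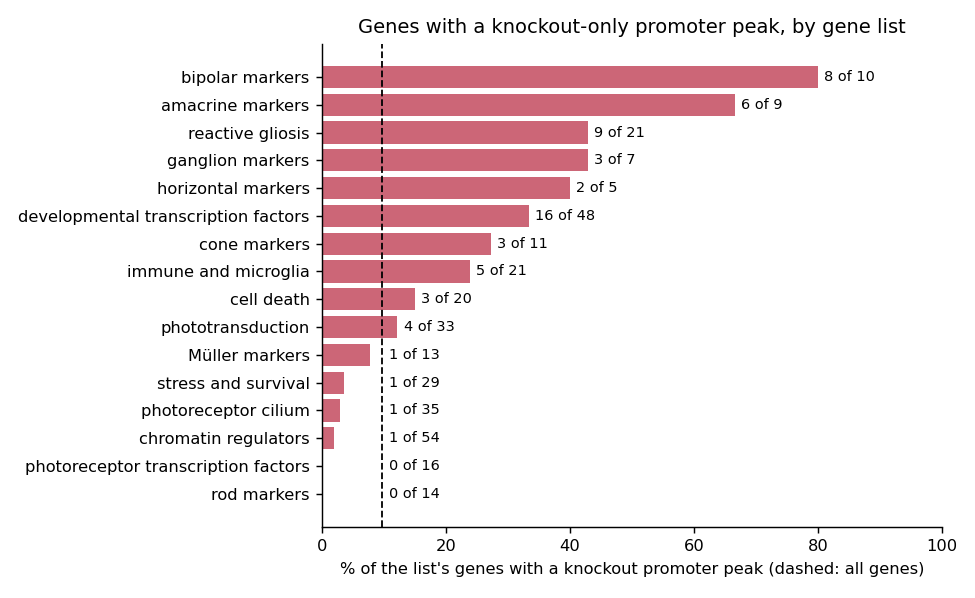
Genes with a knockout-only promoter peak as a percentage of the genes in each list that had any knockout promoter peak, with counts; lists with 5 or more such genes are drawn. The dashed line is the 9.71% over all genes; bipolar markers are at 8 of 10 and rod markers at 0 of 14.

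Families read from gene symbols, chosen after the member list was seen, are given by counts. Of neurotransmitter receptor genes with a KO promoter peak, 29 of 60 had a knockout-only one (48.3%), and all 29 were newly listed. Sodium and calcium channel genes gave 14 of 31 (45.2%), protocadherins and cadherins 27 of 62 (43.5%) and potassium channel genes 29 of 77 (37.7%), beside the 9.71% over all genes. Fox, Hox, Sox and Pax genes gave 19 of 61 (31.1%), collagens 6 of 25, solute carriers 37 of 254 (14.6%) and zinc finger genes 14 of 332 (4.22%). Ribosomal protein genes gave 2 of 88, mitochondrial ribosome and complex I genes 1 of 122, and proteasome genes 0 of 47.

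RNA was read in groups of wells called gates: each well was given to the class whose marker genes scored highest, with a minimum lead of 0.2 over the next. A gate is a range of a score and not a cell type. In the gates read here, a larger share of KO than of WT wells had a lead within 0.1 of the limit: 187 of 504 against 109 of 469 in the rod gate, 74 of 206 against 16 of 110 in the Müller gate, 71 of 269 against 16 of 174 in the bipolar gate and 52 of 102 against 13 of 40 in the amacrine gate. The ganglion, horizontal and pigment epithelium gates went the other way, at 49.5%, 38.6% and 13.7% in KO against 56.1%, 53.8% and 19.0% in WT. Leiden clusters divided the wells differently, with 30 wells in rod clusters of KO 6 months against 215 in the gate, and 222, 357 and 108 wells in Müller clusters of KO against 66, 71 and 69 in the gate. The larger Müller cluster, of 564 wells, had no Müller marker among its 10 leading genes and was led by haemoglobin genes. The part of this in the gate comparisons was not tested. Rod marker reads were found in every gate, at a median of 963 per 10000 in the rod gate. In the bipolar gate the median was 197 for rod markers and 98.5 for its own, and in the Müller gate 259 and 527. In the amacrine gate it was 349 for rod, 58.9 for Müller and 16.5 for amacrine markers, and in the microglia gate 467 for rod and 30.6 for its own markers, so these 2 gates are weakly defined. The rule for members used the peak lists and no RNA value, although some genes were named for their RNA level or ratio.

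Of the newly listed promoter genes, 1070 matched a gene of the RNA tables, and 119 of these (11.1%) had no read in any library, against 2.15% of genes with shared promoters only. Their level was low: the median over all wells was 0.354, 0 and 0.208 CPM in WT and 0.715, 1.20 and 1.17 CPM in KO, and for shared genes it was between 15.9 and 21.2 CPM in the 6 libraries. Their part of the reads in the rod gate lay between 0.177% and 0.292% for WT libraries and between 0.504% and 0.756% for KO. In the cone gate it lay between 0.404% and 0.435% for WT and between 0.625% and 0.684% for KO. In the bipolar gate it was between 1.60% and 2.15%, but 6 of these genes are markers that define that gate. With all cell type markers left out it was between 1.02% and 1.22% in the bipolar gate and 1.03% and 1.30% in the Müller gate. In the rod gate it was then between 0.170% and 0.264% for WT and between 0.435% and 0.579% for KO. In the WT libraries alone, 428 of these genes reached a mean of 5 CPM in a gate, and the highest gate was Müller for 34.3%, amacrine for 32.0%, bipolar for 23.1%, cone for 7.01% and rod for 3.50%. Among shared genes these shares were 23.6%, 25.3%, 20.6%, 16.99% and 13.4% in the same order. The KO libraries gave 4.88% for rod and 38.8% for Müller. Both sets had their highest level mostly outside the rod gate; against shared genes, the newly listed ones had lower shares in the rod and cone gates and higher ones in the Müller and amacrine gates. The gates differ in wells, with as few as 9 in the amacrine gate of WT 3 months, and the part of this in the shares was not tested.

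**Figure D3:**
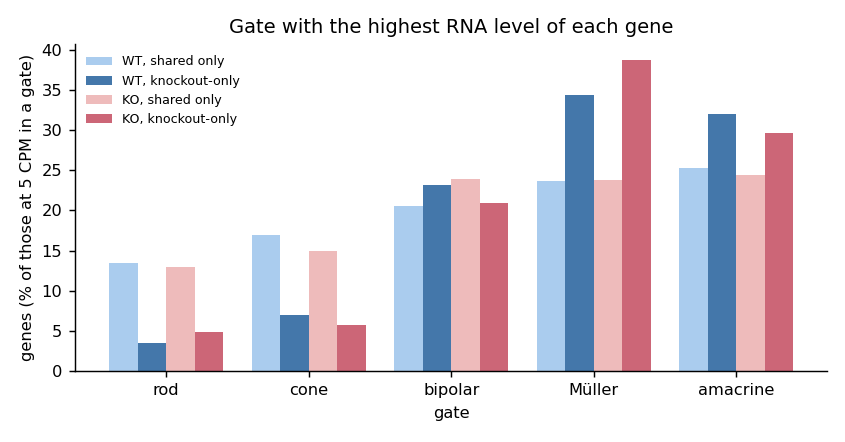
Share of genes whose mean CPM over the 3 ages was highest in each gate, among genes at 5 CPM or more in a gate, for newly listed promoter genes (knockout-only) and genes with shared promoter peaks only, in WT and KO libraries. The rod gate leads for 3.50% of newly listed genes in WT and for 13.4% of shared genes.

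The 8 bipolar markers with a knockout-only promoter were read in the bipolar gate of both genotypes. They are among the 11 markers that put wells into that gate, in each library, so their presence there and the likeness of their levels are in part fixed by the gate. Trpm1 was at 2592, 3531 and 3599 CPM in WT and 3658, 3773 and 2382 CPM in KO. The groups overlapped, and the fit gave a log2 change of -0.16 (SE 0.37). Pcp2 was at 4765, 3095 and 1601 CPM in WT and 3046, 2862 and 1386 CPM in KO, lower in KO at each age by less than the spread between ages (log2 change -0.48, SE 0.37). Grm6 was at 453, 600 and 216 CPM in WT and 1041, 852 and 304 CPM in KO (log2 change 0.58, SE 0.40). Cabp5, a calcium sensor, was at 1722, 1368 and 1074 CPM in WT against 620, 1033 and 1084 CPM, and Scgn at 1026, 780 and 543 CPM against 212, 585 and 491 CPM. In edgeR's quasi-likelihood test over the ages, the adjusted p of each of these 5 genes was 0.999. Together, the 8 genes summed to between 8225 and 11986 CPM in WT and between 6896 and 10780 CPM in KO. Of the 8, 1 had a fitted change above 0.

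In the rod gate the same genes had higher values in KO. Trpm1 was at 3.54, 58.3 and 19.7 CPM in WT and 94.0, 365 and 108 CPM in KO there, with no overlap (log2 change 2.99, SE 0.56, edgeR adjusted p = 0.288). All 8 genes were fitted above 0 in that gate and were higher in KO at each of the 3 ages, as were 19.4% of all genes read there. None passed edgeR's test. DESeq2 called Trpm1, Pcp2, Grik1, Grm6 and Cabp5 higher there (adjusted p from 2.60e-05 to 0.0172), with 5.01% of all genes called higher. The difference between the 2 gates was not tested. The rod gate also held more reads of other cell types in KO: the 14 Müller markers summed to between 765 and 1788 CPM in WT and between 5572 and 10733 CPM in KO, the 11 cone markers to 266 to 941 against 1413 to 2494 CPM, and the 14 rod markers to 113099 to 124285 against 73476 to 97642 CPM. The 12 microglia markers summed to 0 to 4.08 against 4.55 to 20.8 CPM, with between 1 and 12 of them at 0 in WT and between 4 and 7 in KO, and the 8 endothelial markers to 3.43 to 70.5 against 121 to 219 CPM. The part of these other markers in the rod gate differences was not tested.

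**Figure D4:**
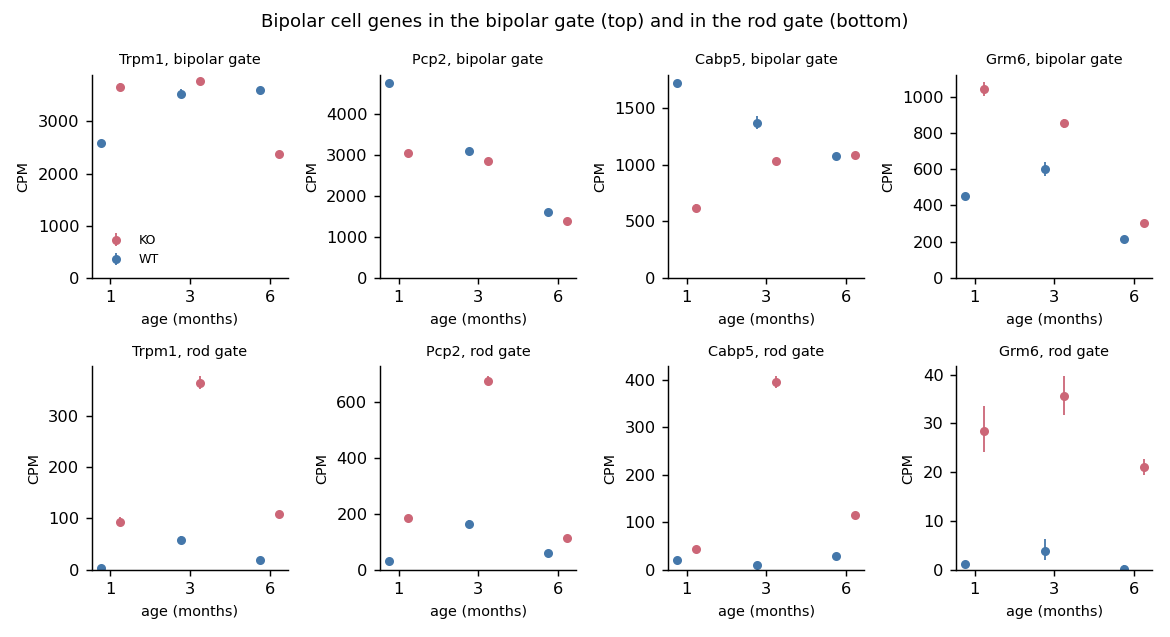
CPM of 4 bipolar cell genes with knockout-only promoter peaks in the bipolar gate (top) and the rod gate (bottom) by age and genotype; points are single libraries, bars 95% Poisson intervals that cover counting error only, and each panel has its own axis from 0. WT and KO points overlap in the bipolar gate for Trpm1, and all KO points lie above the WT points in the rod gate for Trpm1, Cabp5 and Grm6.

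Amacrine genes were low and uneven. Gad2 in the amacrine gate was at 149, 267 and 255 CPM in WT and 115, 181 and 168 CPM in KO, read in 3 to 11 wells per library. Slc32a1 was at 22.9, 307 and 54.9 CPM against 168, 42.97 and 42.92 CPM, and the groups overlapped. Chat had 0 reads in the 3 WT libraries, with 9 to 17 wells in the gate, and 1, 262 and 119 reads in KO, in 1 to 3 wells. The 6 amacrine members, which are among the 10 markers that put wells into this gate, summed to between 531 and 620 CPM in WT and between 514 and 727 CPM in KO. No fit was made in the amacrine gate. Snhg11, a noncoding RNA of neurons, was in this gate at 1473, 1889 and 2300 CPM in WT and 172, 453 and 1200 CPM in KO, with all KO values below all WT values, and was not tested there. In the same gate the 14 Müller markers summed to between 1395 and 5331 CPM in WT and between 6352 and 12547 CPM in KO, the 10 amacrine markers to 2432 to 2734 against 1492 to 2456 CPM, and the 12 microglia markers, with 8 to 12 of them at 0 in WT and 6 to 10 in KO, to 0 to 1.41 against 15.8 to 230 CPM. Their part in the amacrine gate differences was not tested. Calb1, the calcium buffer calbindin, was at 65.98, 476 and 148 CPM in WT and 15.2, 16.1 and 111 CPM in KO over all wells, lower in KO at each age, with the KO 6 month value above that of WT at 1 month (log2 change -2.57, SE 0.77, edgeR adjusted p = 0.977). All 5 horizontal cell markers, of which Calb1 is 1, were fitted below 0 over all wells, and none was called.

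In the cone gate, which Cngb3 and Pde6h help to define, Cngb3 was at 503, 232 and 597 CPM in WT and 509, 650 and 471 CPM in KO, and Pde6h between 7269 and 11910 CPM in all 6 libraries. In the microglia gate, with 4 to 27 wells, P2ry12, a purine receptor of resting microglia and a marker that helps define the gate, was at 843, 0 and 373 CPM in WT and 671, 230 and 456 CPM in KO. Over all wells Cd68, a lysosomal protein of phagocytes, was at 32.7, 0 and 0.625 CPM in WT and 12.7, 13.2 and 12.7 CPM in KO.

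Glial reaction genes were the newly listed genes that passed the test, but in the Müller gate only with the filter on low counts. Serpina3n in the Müller gate was at 0.895, 0 and 0 CPM in WT and 216, 178 and 44.4 CPM in KO, from 3 wells with reads in WT and 43 in KO. C4b was at 2.05, 0 and 0 CPM against 280, 164 and 71.9 CPM, from 3 and 64 wells. No WT library reached a KO library for either gene. Both passed edgeR's quasi-likelihood test in this gate: Serpina3n rose by a log2 change of 8.77 (SE 1.98, adjusted p = 0.0483) and C4b by 8.36 (SE 1.78, adjusted p = 0.0271), each higher at 3 of 3 ages. Both passed the filter on low counts through the KO libraries. Pooled over the ages, the levels were 128 times and 65.4 times those of WT. The WT side of these pooled values rests mostly on the 1 month library, with 71 wells at a median of 432614 reads. The WT 3 and 6 month libraries had 14 and 25 wells, at medians of 40749 and 51600 reads. Serpina3n and C4b were the 2 genes called higher among 10380 tested (0.0193%), with 0 called lower. At an unadjusted p under 0.05 there were 18 newly listed genes, with 262 of all genes (2.52%), and DESeq2 called 16 newly listed genes higher and 2 lower, with 1.46% and 0.222% of all genes. Without the 3 month libraries both calls held (adjusted p = 0.0477 and 0.00436). Neither held without the 1 month libraries (log2 change 11.91 and 12.15, adjusted p = 1.0 for both) or without those of 6 months (8.43 and 7.78, adjusted p = 0.958 for both). They were also lost with no age term (adjusted p = 0.738), when wells needed no minimum lead (0.146 and 0.115) and with no filter on low counts (0.185 and 0.149). With Leiden clusters Serpina3n was at 0.144 and C4b at 0.00359, and DESeq2 gave 2.38e-06 for both. Both genes have close paralogs in mouse, and how reads shared by copies were counted was not given in the sources used here. The WT 3 month library had 14 wells in this gate. The 14 Müller markers summed to between 48858 and 88862 CPM in WT and between 39577 and 65385 CPM in KO, and rod markers to 11436 to 37198 against 15236 to 46888 CPM.

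Over all wells, which need no gate, Serpina3n was at 0.170, 0.0809 and 0.0834 CPM in WT and 51.1, 56.6 and 24.7 CPM in KO. It was the 1 gene called among 15845 (0.00631% higher, 0 lower), with a log2 change of 8.29 (SE 0.74, edgeR adjusted p = 0.0160), and stayed under 0.05 in all 6 alternatives (highest adjusted p 0.0224, without the 1 month libraries). C4b was at 1.23, 0.0809 and 0.917 CPM against 80.0, 46.95 and 35.9 CPM (log2 change 6.19, SE 0.76, adjusted p = 0.0830, from 5.38e-19 to 0.146 over the alternatives). At an unadjusted p under 0.05 there were 38 newly listed genes in all wells, with 3.99% of all genes, and DESeq2 called 23 higher and 3 lower (0.978% and 0.316% of all genes).

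Gfap, whose knockout-only peak of 189 bp had an annotated distance of -203 bp to the start, was at 0.0289, 0 and 0 CPM in the Müller gate of WT and 59.6, 34.1 and 23.5 CPM in KO. Pooled over the ages, these were 1 read in WT and 653 in KO, a ratio of 1154 with a 95% counting interval from 206 to 45644. The WT side again rests mostly on the 1 month library, and the limits at 3 and 6 months alone allow far smaller ratios. The fit did not call Gfap (log2 change 10.34, SE 3.84, edgeR adjusted p = 0.999), and DESeq2 did (adjusted p = 0.00180). A2m, a broad protease inhibitor, had 0 reads in the WT Müller gate and 253, 21.3 and 27.01 CPM in KO, at least 597 times higher against a limit of 3 reads over the 3 WT libraries (edgeR adjusted p = 0.150; 1.75e-05 by DESeq2; 0.000419 without 3 months). This pooled limit also rests mostly on the WT 1 month library, and the limits at 3 and 6 months alone allow far smaller folds. The WT reads of A2m lay in other gates, with 174 CPM in the bipolar gate of WT 3 months. Gbp2, an interferon-induced GTPase, was at 3.06, 3.06 and 0 CPM against 131, 73.0 and 41.7 CPM in the Müller gate (log2 change 5.78, SE 2.24, edgeR adjusted p = 0.999). DESeq2 gave Gbp2 an adjusted p of 0.00597.

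Other genes of the list did not pass the test. Cd44 was at 30.2, 44.9 and 84.6 CPM in WT and 185, 79.1 and 39.9 CPM in KO in the Müller gate, higher in KO at 2 of 3 ages. Ednrb was at 33.0, 0 and 0 CPM against 3.79, 50.1 and 8.68 CPM, with overlap. Of the 9 gliosis members, 6 were tested in the Müller gate, of which 2 passed; all 6 were fitted above 0, and 4 of the 9 were higher in KO at each age. Of the whole list of 23, 14 were tested in that gate, 10 were fitted above 0 and the same 2 passed. Over all wells, 8 of 8 tested members and 21 of 21 tested genes of the list were fitted above 0, and 1 passed, Serpina3n. Markers of other cell types moved in both directions over all wells. Among them 12 of 12 tested microglia markers (median log2 change 2.61), 13 of 14 Müller markers (0.41) and 8 of 8 ganglion cell markers (0.91) were fitted above 0, against 0 of 14 rod (-0.40), 0 of 5 horizontal cell (-2.57), 0 of 5 pigment epithelium (-1.67), 3 of 11 cone (-0.33) and 4 of 11 bipolar markers (-0.17). Pericyte markers gave 3 of 3 (3.71), amacrine markers 6 of 9 (0.37) and endothelial markers 4 of 7 (0.42). None of them was called, and their part in the gliosis values was not tested. Cd44 over all wells was at 7.24, 32.5 and 7.71 CPM in WT and 50.6, 42.2 and 17.3 CPM in KO, higher at each age with overlap between ages. Low members passed the filter on counts mostly through the KO libraries, so these fitted directions were read as a description. Values of Cxcl10, Bmp2 and Ccl2, the 3 members of lowest summed CPM, are not given. Aqp4, the 1 Müller marker with a knockout-only promoter and thus a gene that helped define the gate, was at 1992, 1059 and 1298 CPM in WT and 839, 1307 and 1331 CPM in KO (log2 change -0.37, SE 0.53, adjusted p = 0.999). Cntf, a survival factor for photoreceptors, had 0 reads in every library. Knockout-only promoter peaks were therefore found at glial genes with RNA far higher in KO and at genes whose groups overlapped.

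**Figure D5:**
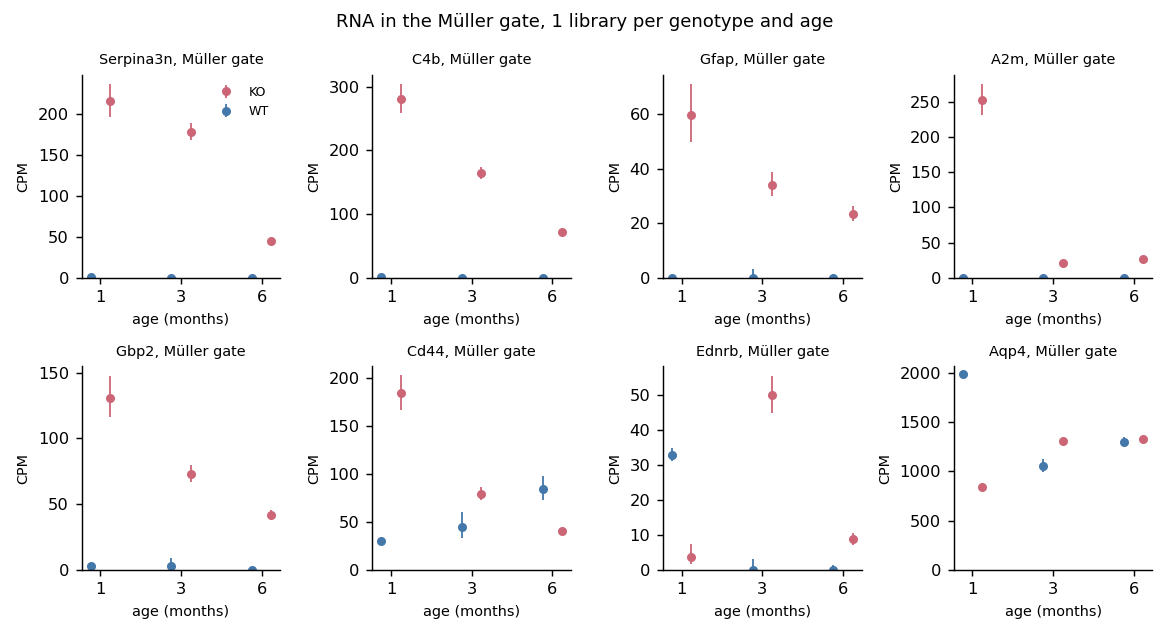
CPM in the Müller gate by age and genotype for 7 genes of the glial and immune reaction or interferon response and for Aqp4; points are single libraries and bars 95% Poisson intervals that cover counting error only, with the limit of 3 reads where a library had none. WT points lie at or near 0 for Serpina3n, C4b, Gfap, A2m and Gbp2, and the 2 genotypes overlap for Cd44, Ednrb and Aqp4.

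Over all newly listed promoter genes with a read, with no filter on level, most were not higher in KO at every age. In all wells those that were numbered 209 of 951 genes (21.98%), against 15.9% of all genes with a read and 19.3% of shared ones, and 39 (4.10%) were lower at each age against 5.25%. In the rod gate 166 of 740 were higher (22.4%, against 19.4% of all genes and 25.1% of shared ones) and 3 were lower (0.405%, against 4.61%). In the Müller gate 102 of 686 were higher (14.9%, against 15.7%) and 11 lower (1.60%, against 3.28%), and in the bipolar gate 84 of 685 were higher (12.3%, against 14.4%) and 16 lower (2.34%, against 4.64%). In the cone gate 112 of 617 were higher (18.2%, against 18.7%) and 2 lower (0.324%, against 3.81%), and in the amacrine gate 54 of 599 were higher (9.02%, against 13.4%) and 17 lower (2.84%, against 4.09%). A gene with no WT read cannot be lower in KO. In the rod gate 249 of the 740 had no WT read, against 3128 of 19298 genes. In the cone gate it was 264 of 617 against 3528 of 17732. Genes with no KO read, which cannot be higher, numbered 64 and 1335 in the rod gate and 46 and 1002 in the cone gate. Their part in these shares was not tested. The share higher in KO lay above that of all genes in all wells and in the rod gate, and below it in the cone, Müller, bipolar and amacrine gates. Against shared genes it lay above in all wells alone. The median log2 ratio of CPM plus 1 over these genes was 0.13 in all wells, 0.09 in the rod gate and 0 in the Müller and bipolar gates. For all genes with a read it was 0.01, 0.04, 0.05 and 0 in the same order, and for shared genes 0.12, 0.30, 0.37 and 0.23. Over the newly listed genes that passed the filter on counts, which low genes pass mostly through the KO libraries, it was 0.36 in all wells, 1.56 in the rod, 1.096 in the Müller and 0.42 in the bipolar gate.

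Beyond the glial genes, edgeR called none of the newly listed genes in the rod gate, where 173 were tested (0.0186% of all genes called), or in the bipolar gate, where 209 were tested (0.0378%). The 4 genes called in the bipolar gate were all Müller markers. At an unadjusted p under 0.05 there were 41 in the rod gate, where 8.05% of the 10765 genes passed that level, and 22 in the bipolar gate (3.46% of 10576). DESeq2 called 40 higher and 1 lower in the rod gate (5.01% and 1.01% of all genes) and 13 higher and 0 lower in the bipolar gate (1.53% and 0.246%). A low gene passed the filter on counts mostly through the libraries where it was high, so these counts were read as a description. Pcolce, a collagen processing factor, was at 1.15, 0.533 and 7.25 CPM in WT and 245, 90.0 and 21.3 CPM in KO in the rod gate (log2 change 5.56, SE 1.46, edgeR adjusted p = 0.488). DESeq2 gave Pcolce an adjusted p of 2.07e-06. Ptprz1 and Scara3, both read mainly in other gates in WT, were at 0.268, 0 and 0 against 24.2, 31.4 and 32.5 CPM and at 0.0574, 0 and 0.309 against 36.8, 36.0 and 4.55 CPM. Crym, a thyroid hormone binding protein read in the Müller gate of WT at 1515, 544 and 459 CPM, was at 3.64, 6.39 and 30.5 CPM in WT and 224, 144 and 154 CPM in KO in the rod gate, beside the Müller marker sums given above.

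In the bipolar gate, Cacng4, a subunit of calcium channels and AMPA receptors, was at 0.616, 0 and 0 CPM in WT and 36.8, 36.8 and 82.8 CPM in KO (log2 change 7.94, SE 2.29, edgeR adjusted p = 0.881), and Efemp1, an extracellular matrix protein, at 0.240, 0 and 3.94 against 59.6, 32.6 and 43.5 CPM. DESeq2 gave adjusted p = 7.45e-05 for Cacng4 and 0.00209 for Efemp1. The 14 Müller markers in that gate summed to between 843 and 1634 CPM in WT and between 6113 and 9179 CPM in KO, and their part in these differences was not tested. Cck, a neuropeptide, was lower in KO at each age, at 177, 118 and 96.5 CPM in WT and 25.5, 26.2 and 66.4 CPM in KO (log2 change -2.004, SE 0.85, adjusted p = 0.999). Igf1 was lower there as well, at 186, 359 and 412 CPM against 151, 146 and 64.6 CPM (log2 change -1.57, SE 0.55, adjusted p = 0.999), with every KO value below every WT value although its promoter peak was listed in KO alone. In the Müller gate Abca6, a lipid transporter of the ABC family, was at 65.7, 9.19 and 92.2 CPM in WT and 0, 0 and 45.1 CPM in KO (edgeR adjusted p = 0.999). DESeq2 called Abca6 lower there (adjusted p = 0.0131).

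Values are given for 5 developmental transcription factors. Barhl2, a factor of amacrine and ganglion cells, was at 47.4, 250 and 17.03 CPM in WT and 24.1, 19.3 and 7.79 CPM in KO in the amacrine gate, lower in KO at each age with overlap between ages, from 1 to 4 wells a library and not tested there. Sox11 did not exceed 3.77 CPM over all wells in any library and Msx1 0.382 CPM, and Foxn4 had 0 reads in WT and 18 in KO. Vsx1, a bipolar cell factor, was at 162, 46.4 and 71.9 CPM in WT and 54.5, 158 and 78.0 CPM in KO in the bipolar gate. Over all wells, 4 of the 16 members of this list were tested and none passed.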

How the data were processed

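Per the submitters' processing notes, peaks came from Cell Ranger ATAC 1.1.0 on mm10, and RNA reads were processed with CASAVA, TopHat2, HTSeq and Seurat on mm10/GRCm38, in roles and order not given in the sources used here. The deposited RNA tables hold the authors' counts of reads per gene and well, whole numbers not scaled, with no collapse to molecules stated. The deposited peak lists give position, gene, distance and kind, with no score; distances are the authors' own values in base pairs.

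Members were found by an overlap of 1 bp or more. Wells entered when 300 or more genes were detected and mitochondrial reads did not exceed 30%. Gates came from mean marker z-scores within each library on log counts per 10000 (scanpy 1.11.5); Leiden clusters served as an alternative, and no doublet caller was run. Counts were summed per gate and library and tested with edgeR 4.0.16 (quasi-likelihood, TMM, filterByExpr, age plus genotype, Benjamini-Hochberg over all genes, threshold 0.05), which leaves 2 residual degrees of freedom; DESeq2 1.42.0 was the alternative (R 4.3.3). With 1 library per group and age fitted as a factor, p-values measure how the genotype difference varied between ages and libraries, not between animals. Ratios used log2(CPM + 1). Intervals are exact Poisson (95%), a count of 0 was given a limit of 3 reads, and both cover counting error only, since reads are not independent molecules.

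Genes were named by rule: those of the 8 longest members, the 5 with most members, up to 6 newly listed genes per list, the 4 with the largest same-sign RNA ratio per fit and direction, the 3 of highest KO 6 month level in a gate, and Spata7; list markers are given beside them, and other named genes were chosen after their values were seen. The members and lists were chosen with earlier results of these data known. RefSeq windows (GRCm38.p6) matched by symbol; 94.2% of newly listed genes matched the RNA tables.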

Additional observations from a re-analysis of the deposited data

Results flagged for a closer look

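In all, 7 named genes moved one way in 1 gate at all 3 ages and the opposite way in another, on the median log2(KO/WT) of CPM plus 1; the difference between gates was not tested. Ntng1 was at 2.71 in the rod gate and -0.34 in the bipolar gate, and Pcp2 at 2.03 in the rod, 1.44 in the Müller and -0.21 in the bipolar gate. Ptprz1 was at 5.02 in the rod, 2.05 in the Müller and -0.54 in the bipolar gate. Ifi27 was at 2.68 in the rod, -1.09 in the Müller and 3.15 in the bipolar gate, and Cacng4 at 3.80, -0.35 and 5.24 in the same order. Unc13c was at 0.59 in the rod gate and -1.42 in the Müller gate, and Amt at 1.89 in the Müller gate and -1.92 in the bipolar gate. For each of these genes, among the gates named, the WT level was highest in the gate with the negative value at each of the 3 ages.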

How the results depend on the processing

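The count of knockout-only promoter peaks was 2639 when peaks under 50% covered were included, and 810 (668 newly listed genes) when the KO list was limited to its longest peaks, an alternative added after seeing the data. The count of newly listed genes called was 26 by DESeq2 in all wells, 41 in the rod gate, 18 in the Müller gate and 13 in the bipolar gate, with 205, 648, 175 and 188 of all genes. With no filter on low counts it was 2, 5, 0 and 1 in the same order, with 5, 72, 0 and 16 of all genes. With no minimum lead it was 1 in the rod gate and 0 in the Müller gate, with 4 and 0 of all genes. In the Müller gate it was 1 with Leiden clusters (2 of all genes) and 0 with no age term (0 of all genes). Leaving out 1 age at a time gave 1 to 4 in all wells (3 to 17 of all genes), 1 to 5 in the rod gate (14 to 50), 0 to 3 in the Müller gate (0 to 6) and 0 to 2 in the bipolar gate (11 to 13). The median log2 ratio of tested newly listed genes in the rod gate moved from 1.56 to 2.51 with a pseudocount of 0.1 and with no filter to 0.09. The cause was not tested. Genotypes were already matched by age in the fit, and the values with no age term are the unmatched ones. No paired analysis was possible because, beyond age, each genotype and age has 1 library and no replicate number links animals. The WT 3 month library had 14 wells in the Müller gate and 9 in the amacrine gate.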
